A study of Mus musculus with 20 samples.

Results

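The 8 genes described here, Kcnf1, Grm5, Shisa2, Dlg2, Ppp1r1b, Prkg1, Madd and Ankrd29, encode mostly proteins of nerve cell signalling, and were picked for ratios between reactions with and without iron regulatory protein 2 (IRP2) that looked unequal between tissues. They are 8 of the 14872 genes tested on the arrays, and since they were chosen by these log2 ratios, the ratios are a description of them. Calls on the ratios are counted beside the share of calls over all probe sets, and nothing is read from them. The array annotation gives the 8 genes 16 probe sets, 14 of which passed a filter on low values and entered the fits, 6 of them only through brain arrays, and 7 of the genes have more than 1 probe set. RNA of 5 mouse tissues (strain C57BL6/J, both sexes mixed, no mutation named) was incubated with recombinant His-tagged IRP2 made in bacteria, pulled down through the tag with a monoclonal antibody, and hybridised to Affymetrix Mouse Genome 430 2.0 arrays. In the control reactions IRP2 was left out per the protocols, although the source labels of those samples list the protein as well. There were 2 arrays in each of 10 groups, an IRP2 and a control group for each tissue. Duodenum, liver and spleen RNA was pooled from 4 mice fed less than 10 mg iron per kg diet for 21 days after weaning. Bone marrow and brain RNA was pooled from 6 mice aged 8 to 10 weeks on a diet of normal iron content. Between these sets, tissue cannot be told apart from diet or age. The labels do not say whether both replicates of a tissue came from 1 pool, and p-values then measure the spread between samples that may be technical repeats.

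IRP2 is a cytoplasmic protein that binds iron-responsive elements (IREs), hairpins in the untranslated ends of mRNAs for iron uptake, storage and export, and so blocks their translation or protects them from decay when iron is low. Several of the 8 genes work in the chain that leads from a transmitter at a synapse to a change inside the neuron. They encode a glutamate receptor, a scaffold that anchors receptors, a potassium channel subunit, and regulators of protein phosphorylation. The 8 genes are not among the textbook IRE mRNAs.

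Array values are on a log2 scale, and a ratio is the mean log2 level of 2 arrays with IRP2 minus that of 2 control arrays. It is given with its standard error (SE) from limma. This SE pools the spread of a probe set over all 10 groups. It is therefore the same in each tissue and is not the spread of that tissue's arrays alone. A tissue was set aside as dim for a probe set where its mean control level was under the 10th percentile of all probe sets tested there. This limit was 4.86 in brain, 4.88 in duodenum, 4.82 in liver, 4.55 in spleen and 4.64 in bone marrow. Bone marrow control replicate 1 stood apart: its rank correlation with the spleen arrays averaged 0.908, while those of the 3 remaining marrow arrays averaged 0.824 to 0.825. Brain replicates 1 and 2 also lay apart, with rank correlations of 0.901 to 0.909 between numbers, against 0.988 and 0.992 between the IRP2 and control arrays of the same number. Of the textbook IRE mRNAs, the known ligands of IRP2, all 6 tested were higher with IRP2 on the mean over tissues by limma on at least 1 probe set, with the transferrin receptor Tfrc reaching 3.30 ± 0.19 (SE).

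In DNA spelling the IRE loop begins with the letters CAGTG, and in a full element 5 paired bases separate them from an unpaired C upstream. These letters were searched on both strands in RefSeq promoter windows (GRCm38.p6, 250 bases before to 50 bases after a transcription start), the only genomic sequence used here. Kcnf1, Shisa2, Dlg2, Prkg1 and Madd had 9 windows between them. The 3 windows that hold the letters on the gene's own strand are shown, since each belongs to a gene with high ratios on 1 probe set and ratios near 0 on another. The loop letters are in capitals.
Madd, chr2:91179272-91179301, minus strand: gggaatgctggcttcttgctCAGTGccctg
Dlg2, chr7:91090693-91090722, plus strand: ctttttttccccCAGTGatttaaaatgcta
Kcnf1, chr12:17176922-17176951, minus strand: ccaccagcagggCAGTGcttaggagtgtca
In Madd the letters begin 40 bases after a start, with a C and 5 bases before them. The window ends before all 5 bases of the other side of a stem. With 1 base after the letters counted to the loop, the bases nearest it on either side, ct and cc, do not pair. In Dlg2 and Kcnf1 they begin 81 and 51 bases before a start, outside the transcript from that start. Over all 32851 windows 34.7% hold the letters on the gene's strand and 55.9% on either strand, against 3 and 7 of the 9 windows here. The transcribed part of 7.2% of all windows holds the letters, and 1.58% hold them there after a C and 5 bases. None of the 4 textbook IRE genes with a window held the letters after a C and 5 bases in the transcribed part, so a match or its lack in these windows describes only their letters. The untranslated ends of the mRNAs were not analysed here.

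All ratios above 2 lay in brain and duodenum, and those in spleen reached 1.83. The leading probe set of a gene is the tested one with the highest absolute ratio in a tissue that is not dim. Over the 14 tested probe sets, the IRP2 arrays lay above both control arrays for 10 in brain, where they did so for 4.21% of all tested probe sets. The counts were 8 in duodenum (14.4% of all), 8 in spleen (15.6%), 6 in liver (13.9%) and 5 in bone marrow (14.5%). They lay below both for 1 in brain, Grm5 1455272_at (6.44% of all), and for 1 in liver, Kcnf1 1441300_at (20.7%). The median ratio over the 14 tested probe sets was 0.96 in brain, 0.62 in duodenum, 0.53 in spleen, 0.30 in bone marrow and 0.15 in liver, beside medians over all 30153 tested probe sets between -0.04 in liver and 0.04 in duodenum. A call here means a Benjamini-Hochberg adjusted p under 0.05 by limma. In duodenum 4 of the 14 were called higher, where 0.073% of all tested probe sets were. In brain 4 were called higher (0.0597% of all) and 1 lower, the only probe set called lower there (0.00332%). In spleen 1 was called higher (0.063% of all), and in liver and bone marrow 0 by limma (0.0332% and 0.00995% of all), where 2 and 4 were higher at an unadjusted p under 0.05, as were 0.793% and 1.73% of all. On the mean over the 5 tissues 8 were called higher, where 0.365% of all were. These counts follow from the choice of the genes. A further fit took tissue and replicate number together as the block. With this block limma called 7 higher in duodenum (0.282% of all), 6 in spleen (0.292%) and 6 in brain (0.139%). It called 2 higher in bone marrow (0.378%) and 0 in liver (0.206%), with 1 lower in brain (0.00332%). The block thus raised the calls over all probe sets as well. The duodenum count was 1 without IRP2 replicate 1 or control replicate 2 and 0 without either of the other two arrays. The spleen count was 0 without any 1 of its 4 arrays. The brain count of higher calls was 2 without control replicate 1. Between tissues, limma's F test of equal ratios called 1 of the 30153 probe sets and 12 with the block. The genes were picked for unequal ratios, so their own results in this test are not given.

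**Figure D1:**
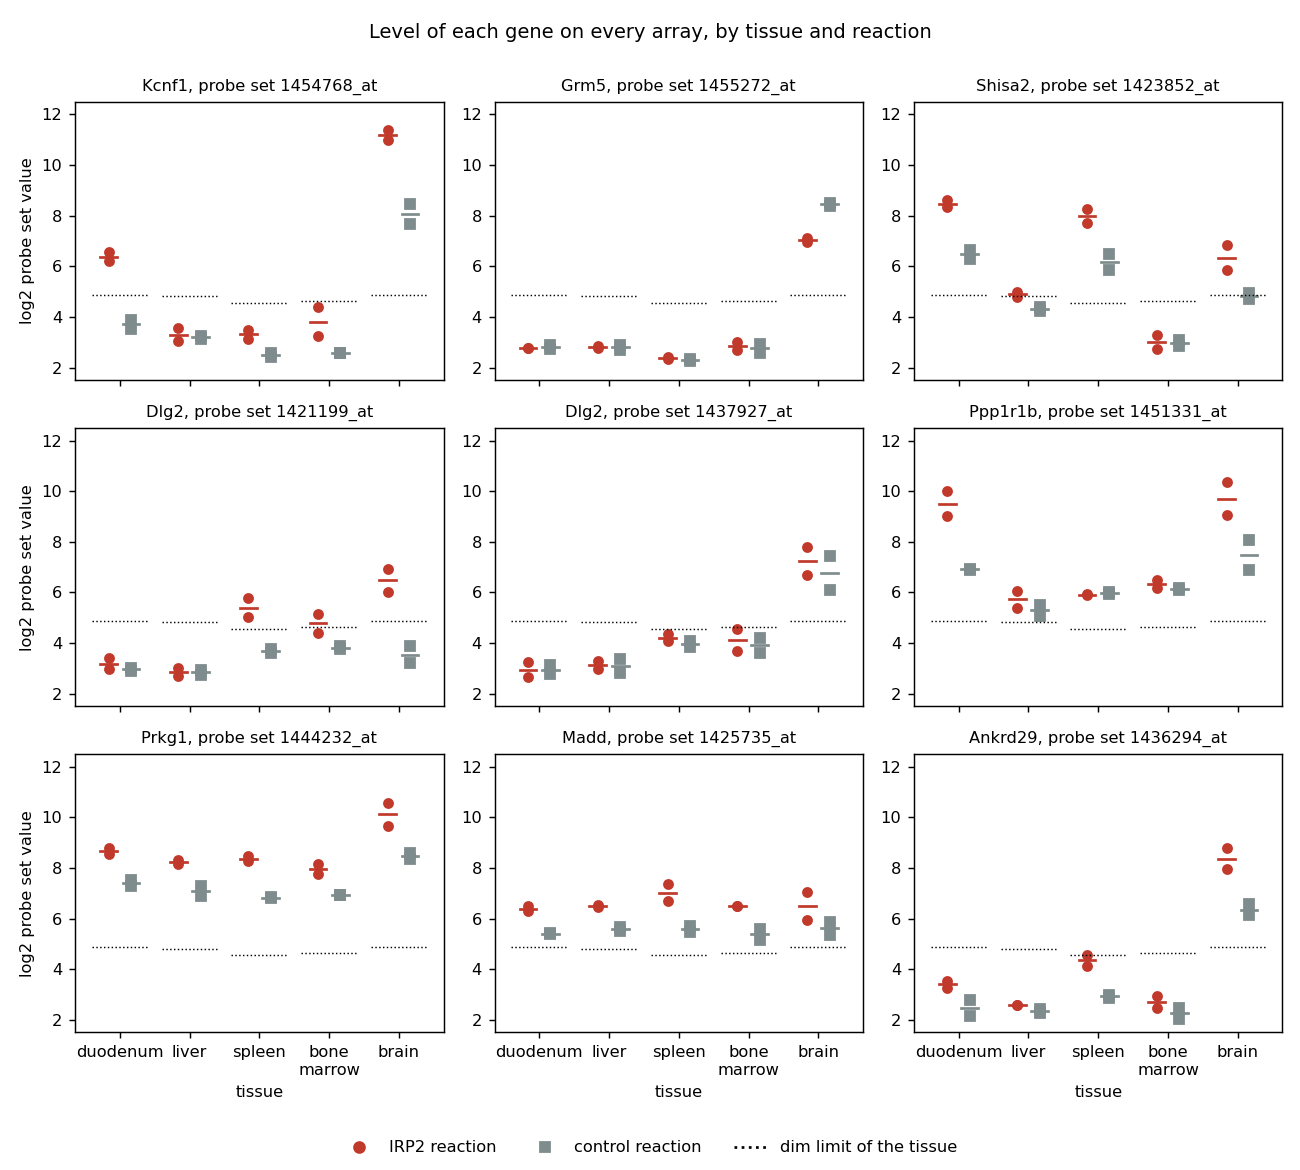
Log2 probe set value (vertical axes) on every array by tissue (horizontal axes) for the leading probe set of each of the 8 genes and for Dlg2 1421199_at, with IRP2 reactions as circles, control reactions as squares, short lines for the means of 2 arrays and dotted lines for the dim limit of each tissue. The IRP2 arrays lie above the controls in all 5 tissues for Prkg1 and Madd, and below them in brain for Grm5.

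Kcnf1 encodes Kv5.1, a potassium channel subunit that forms no channel by itself and modifies Kv2 channels. Its mRNA had the highest ratio among the 8 genes, in brain, and a nearly equal one in duodenum, where its control level was dim. In brain probe set 1454768_at read 11.39 and 10.99 with IRP2, against 8.47 and 7.67 in the control reactions, a ratio of 3.13 ± 0.34 (8.72-fold). In duodenum it read 6.22 and 6.56 with IRP2, against 3.54 and 3.90 in control, a ratio of 2.67 ± 0.34. In both tissues the IRP2 arrays lay more than 2 units above the controls, and the pair ratios were 2.93 and 3.32 in brain and 2.68 and 2.66 in duodenum. In bone marrow it read 3.23 and 4.40 with IRP2, against 2.58 and 2.56 in control, and in spleen 3.14 and 3.50, against 2.43 and 2.56. These ratios of 1.24 ± 0.34 and 0.82 ± 0.34 rest on dim controls, and the first was called only with the block. In liver the reactions overlapped at 3.54 and 3.06 with IRP2 and 3.25 and 3.14 in control. The other probe set of Kcnf1, 1441300_at, showed none of this: its ratios ran from -0.28 in liver to 0.34 in bone marrow, and in brain it read 6.44 and 5.14 with IRP2, against 6.39 and 5.15 in control. The gene lies on chromosome 12 from 17172100 to 17176888 (GRCm38.p6).

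Grm5 encodes mGluR5, a G protein-coupled glutamate receptor at the rim of synapses that raises intracellular calcium. Among the leading probe sets it was the only one with both IRP2 arrays of a tissue below the controls. In brain probe set 1455272_at read 6.98 and 7.11 with IRP2, against 8.49 and 8.40 in control, a ratio of -1.40 ± 0.20, so that the control level was 2.65-fold higher. Replicates of a reaction lay close together, the reactions did not overlap, and the pair ratios were -1.51 and -1.30. In the other 4 tissues all arrays of both reactions lay between 2.25 and 3.03, below the dim limits, and the ratios ran from -0.05 to 0.11. The brain call was lost without IRP2 replicate 1, control replicate 1 or control replicate 2, with ratios of -1.34, -1.36 and -1.45. The other probe set, 1456119_at, failed the filter and did not show the brain difference: it read 4.63 and 5.73 with IRP2, against 4.92 and 5.32 in control. It was dim in the other 4 tissues, and its IRP2 arrays lay above the controls only in bone marrow. Grm5 spans chromosome 7 from 87583981 to 88135063.

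Shisa2 encodes a membrane protein of the endoplasmic reticulum that holds back the maturation of Wnt and FGF receptors, as described first in the frog Xenopus for the family. Both of its probe sets, which the annotation derives from the same source sequence, had high ratios in duodenum and spleen, tissues in which its control level was not dim. In duodenum 1423852_at read 8.33 and 8.63 with IRP2, against 6.28 and 6.66 in control, a ratio of 2.01 ± 0.32 (4.02-fold). In spleen it read 8.25 and 7.73, against 6.47 and 5.84, a ratio of 1.83 ± 0.32 (3.56-fold). The groups did not overlap in either tissue, and the pair ratios lay between 1.78 and 2.05. In brain the IRP2 arrays read 6.84 and 5.85 and the controls 4.94 and 4.72, just under the dim limit, a ratio of 1.52 ± 0.32 in which pair 1 (1.91) and pair 2 (1.13) differed. In liver it read 5.0 and 4.80 with IRP2, against 4.40 and 4.23 in control, and in bone marrow 3.29 and 2.75, against 3.09 and 2.85. The ratio was thus 0.59 in liver and 0.06 in bone marrow, both dim. Probe set 1423851_a_at followed the same order of tissues in part, with 1.66 ± 0.24 in spleen, 1.43 ± 0.24 in duodenum, 1.04 ± 0.24 in brain, 0.26 in bone marrow and 0.15 in liver. Both probe sets were called in duodenum, 1423851_a_at alone in spleen, and 1423852_at also in spleen and brain with the block. Shisa2 lies on chromosome 14 from 59625281 to 59631660.

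Dlg2 encodes PSD-93, a scaffold of the postsynaptic density that anchors glutamate receptors and potassium channels. Its 3 probe sets did not agree: 1421199_at had high ratios on dim controls, and the others had ratios nearer 0. On 1421199_at brain read 6.03 and 6.94 with IRP2, against 3.20 and 3.88 in control, a ratio of 2.95 ± 0.34 on a dim control. On the same probe set spleen read 5.77 and 5.04 with IRP2, against 3.75 and 3.62 in control (1.72 ± 0.34), and bone marrow 4.41 and 5.16, against 3.88 and 3.77 (0.96 ± 0.34). The IRP2 arrays lay above the controls in these 3 tissues and overlapped them in duodenum (0.21) and liver (0.02), but the control level of this probe set was dim in all 5 tissues. The brain difference was called, and that in spleen only with the block. Probe set 1421200_at, derived from the same source sequence per the annotation, was dim in no tissue and had ratios from -0.11 in brain to 0.39 in bone marrow. In brain it read 4.97 and 6.25 with IRP2, against 5.16 and 6.29 in control. On 1437927_at, which takes the leading place because the rule sets dim tissues aside, brain read 6.70 and 7.78 with IRP2, against 6.08 and 7.44 in control, and the reactions overlapped in every tissue. The gene spans chromosome 7 from 90476188 to 92449246 and has several starts, and which transcripts each probe set reads was not tested.

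Ppp1r1b encodes DARPP-32, which inhibits protein phosphatase 1 once dopamine signalling has led to its phosphorylation, and is a hallmark of striatal projection neurons. It has 1 probe set, 1451331_at, dim in no tissue, with ratios above 2 in duodenum and brain and near 0 in spleen and bone marrow. In duodenum it read 9.0 and 10.00 with IRP2, against 6.89 and 6.94 in control, a ratio of 2.58 ± 0.43 (5.99-fold) with pair ratios of 2.11 and 3.05. In brain it read 9.05 and 10.37 with IRP2, against 6.87 and 8.06 in control, a ratio of 2.24 ± 0.43 (4.72-fold). The brain values of a reaction differed by more than 1 unit between replicates while the pair ratios were 2.18 and 2.30, and brain was called only with the block. Liver read 5.40 and 6.06 with IRP2, against 5.09 and 5.50 in control, spleen 5.93 and 5.90, against 6.0 and 5.93, and bone marrow 6.48 and 6.18, against 6.18 and 6.10. Here the reactions overlapped, at ratios of 0.44, -0.05 and 0.19. Ppp1r1b lies on chromosome 11 from 98348406 to 98357796.

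Prkg1 encodes the cGMP-dependent protein kinase that acts downstream of nitric oxide and natriuretic peptides, in smooth muscle as well as in neurons. It had IRP2 arrays above the controls in all 5 tissues, on 1444232_at, which was dim in none. Brain read 9.65 and 10.58 with IRP2, against 8.60 and 8.36 in control (1.64 ± 0.27, 3.12-fold). Spleen read 8.47 and 8.26 with IRP2, against 6.84 and 6.80 in control (1.54 ± 0.27), and duodenum 8.80 and 8.54, against 7.51 and 7.27 (1.28 ± 0.27). These pair ratios ran from 1.06 to 2.22, the extremes being the 2 brain pairs. Liver read 8.32 and 8.16 with IRP2, against 6.88 and 7.29 in control (1.16 ± 0.27), and bone marrow 7.78 and 8.18, against 6.93 and 6.95 (1.04 ± 0.27). The range over tissues was 0.60, little more than 2 times the SE of 1 ratio. Brain was called, and duodenum and spleen with the block. The other probe set, 1449876_at, failed the filter, was dim in 4 tissues and had ratios from 0.23 to 0.50. Prkg1 spans chromosome 19 from 30564487 to 31765268.

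Madd encodes an exchange factor that activates Rab3, the GTPase of synaptic vesicle release, and also binds the tumour necrosis factor receptor. It too had IRP2 arrays above the controls in all 5 tissues, on 1425735_at, with ratios close to 1. Spleen read 6.68 and 7.35 with IRP2, against 5.47 and 5.72 in control (1.42 ± 0.31), and bone marrow 6.51 and 6.50, against 5.60 and 5.16 (1.13 ± 0.31). Duodenum read 6.29 and 6.50 with IRP2, against 5.41 and 5.39 in control (0.99 ± 0.31), and liver 6.52 and 6.47, against 5.66 and 5.50 (0.92 ± 0.31). Brain, the lowest of the 5, read 7.03 and 5.94 with IRP2, against 5.86 and 5.36 in control (0.87 ± 0.31). The range over tissues was 0.55, and no tissue was called without the block, which called duodenum, spleen and bone marrow. Probe set 1455502_at, dim in no tissue either, had ratios from -0.19 in duodenum to 0.30 in brain, and its reactions overlapped in 4 tissues. In spleen it read 10.90 and 10.63 with IRP2, against 10.87 and 10.70 in control. Madd lies on chromosome 2 from 91137360 to 91184006.

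Ankrd29 encodes a protein made largely of ankyrin repeats. Brain was the only tissue in which its leading probe set, 1436294_at, was not dim, and there it read 7.95 and 8.80 with IRP2, against 6.13 and 6.58 in control, a ratio of 2.02 ± 0.30 (4.05-fold). In spleen it read 4.57 and 4.14 with IRP2, against 2.98 and 2.87 in control (1.43 ± 0.30), and in duodenum 3.28 and 3.53, against 2.16 and 2.77 (0.94 ± 0.30). The IRP2 arrays lay above the controls in these tissues and in liver (0.25), and overlapped them in bone marrow (0.43). Brain was called, and duodenum and spleen only with the block. Probe set 1438756_at gave lower ratios in the same direction: in brain it read 6.74 and 7.42 with IRP2, against 5.81 and 6.63 in control (0.86 ± 0.27), and elsewhere the ratios ran from 0.04 to 0.31. The gene spans chromosome 18 from 12252357 to 12306013.

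**Figure D2:**
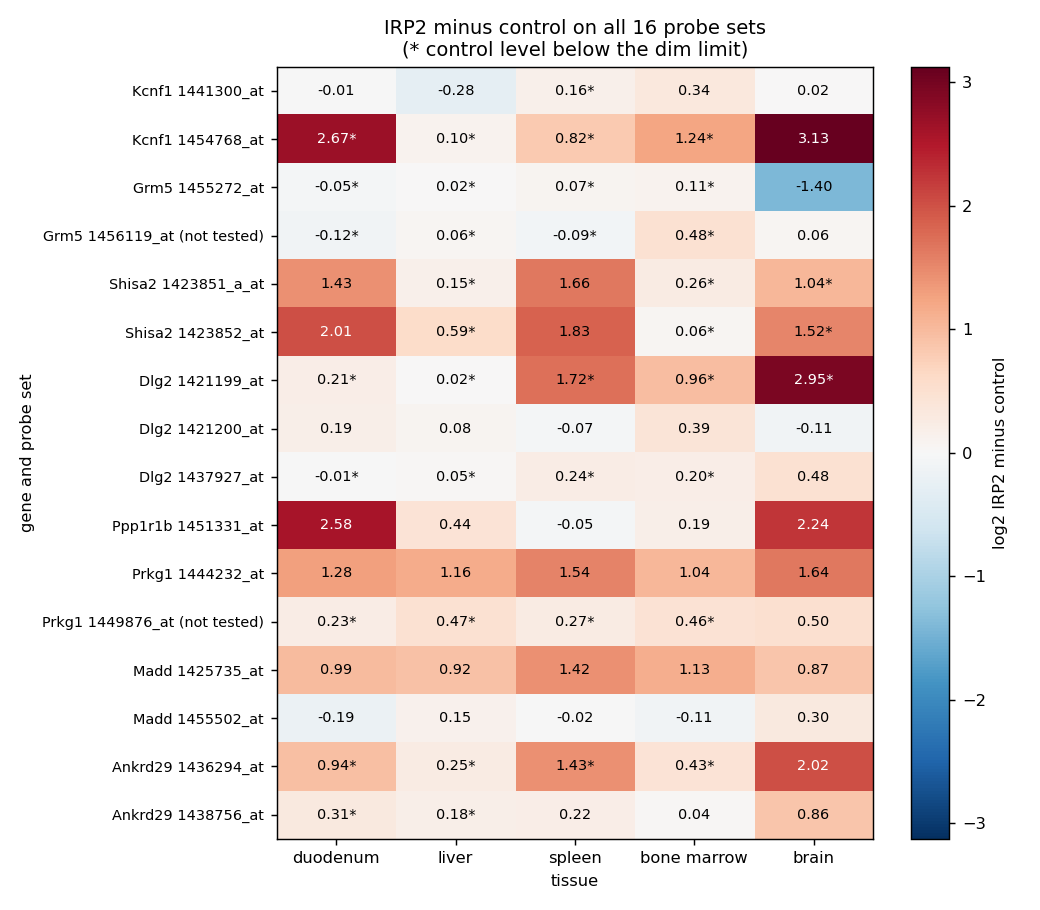
Log2 IRP2 minus control, as colour and printed value, for all 16 probe sets (rows) in 5 tissues (columns), with an asterisk where the control level is dim. Within Kcnf1, Dlg2 and Madd, 1 probe set has ratios of 0.8 or more in several tissues and another stays between -0.28 and 0.39, and Grm5 1455272_at in brain is the only cell below -1.

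Of the 5 genes with several tested probe sets, 3 had 1 high probe set and others near 0. Averaged over the 5 tissues, Kcnf1 stood at 1.59 ± 0.15 on 1454768_at and at 0.05 ± 0.17 on 1441300_at. Madd stood at 1.07 ± 0.14 on 1425735_at and at 0.03 ± 0.12 on 1455502_at. Dlg2 stood at 1.17 ± 0.15, 0.10 ± 0.17 and 0.19 ± 0.20 on its 3 probe sets. The Shisa2 probe sets were closest, at 1.20 ± 0.14 and 0.91 ± 0.11, followed by those of Ankrd29 at 1.01 ± 0.14 and 0.32 ± 0.12. A gene's ratio here therefore depends on the probe set that is read, and only Shisa2 had called ratios on more than 1 probe set.

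In bone marrow 7 of the 14 probe sets were dim and 1 control array stood apart. Without that array, control replicate 1, the ratio of Kcnf1 1454768_at was 1.26 (1.24 with it), that of Prkg1 1444232_at 1.03 (1.04) and that of Madd 1425735_at 1.35 (1.13). The ratio of Ankrd29 1436294_at was 0.21 without it, against 0.43 with it. Grm5 1455272_at and Dlg2 1437927_at, both dim there, came to -0.08 and -0.10 without it, against 0.11 and 0.20 with it.

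The control reactions show in which tissue each mRNA was present in the recovered RNA. These levels are part of every ratio and set which tissues are dim, so they are not independent of the choice of genes and are given as a description. Brain had the highest mean control level for 11 of the 16 probe sets, but for neither of Shisa2. No share over all probe sets is given for this count, so nothing is read from it. Both brain controls lay above all 8 other controls on 8 of the 16, where they did so on 12% of all 45037 probe sets. In bulk tissue, fewer cells of a type and less RNA per cell cannot be told apart. By limma, 9 of the 14 tested probe sets were higher in the brain controls than in the mean of the other 4 tissues' controls and 1 was lower, where 22.4% of all tested were higher and 23.1% lower. However, 5 of these 9 passed the filter only through brain arrays: Kcnf1 1441300_at, Grm5 1455272_at, Dlg2 1437927_at and both of Ankrd29. Of the 8 that passed it on the arrays of other tissues, 4 were higher and 1 was lower, where 18.6% and 24.3% of the 28596 such probe sets were. Outside brain, Kcnf1 1454768_at (higher) passed only on the duodenum IRP2 arrays. Shisa2 1423851_a_at (lower) passed only on the duodenum and spleen IRP2 arrays. Their place among the 8 thus rests on the ratios by which the genes were chosen.

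Grm5 1455272_at read 8.49 and 8.40 in the brain controls and at most 2.95 in any other control, a log2 difference of 5.77 ± 0.15 from the mean of the other tissues. Kcnf1 1454768_at read 8.47 and 7.67 in the brain controls and at most 3.90 elsewhere, a difference of 5.07 ± 0.27. For both genes every brain control lay above all 8 others. So did those of Ankrd29 on both probe sets (3.86 ± 0.24 and 1.82 ± 0.21), Dlg2 on 1437927_at (3.28 ± 0.35) and Prkg1 on 1444232_at (1.42 ± 0.21). Ppp1r1b differed by 1.39 ± 0.34, but its brain controls of 6.87 and 8.06 overlapped the duodenum controls of 6.89 and 6.94. Without brain control replicate 2 that difference was 0.79 and was no longer called. Madd differed by 1.24 ± 0.20 on 1455502_at, where spleen reached the brain level, and by 0.12 ± 0.25 on 1425735_at, which was not called. Kcnf1 1441300_at differed by 0.93 ± 0.30, and by 0.31 and out of the calls without brain control replicate 1. The other Dlg2 probe sets differed by 0.21 ± 0.27 and 0.04 ± 0.29, neither called. Shisa2 differed by -0.59 ± 0.19 on 1423851_a_at, a call lost without brain control replicate 1 (-0.58) or 2 (-0.60), and by -0.15 ± 0.25 on 1423852_at. The median difference over all tested probe sets was -0.14, and 0.00 without brain control replicate 2.

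The order of tissues by control level differed between genes. For Kcnf1 1454768_at it was brain, duodenum, liver, bone marrow and spleen, with no overlap between neighbours except the last pair. For Grm5 duodenum, liver and bone marrow did not differ beyond their spread. For Shisa2 1423852_at duodenum (6.47) and spleen (6.15) came first and overlapped, followed by brain (4.83), liver (4.32) and bone marrow (2.97). For Ppp1r1b brain (7.47) and duodenum (6.92) overlapped and lay above bone marrow (6.14), spleen (5.97) and liver (5.30), each above the next. For Shisa2 1423852_at and Ppp1r1b the 2 tissues with the highest ratios were also the 2 with the highest control levels. The same held for Kcnf1 1454768_at, Dlg2 1437927_at and Ankrd29 1436294_at, but there the second tissue was dim. It did not hold for Prkg1 1444232_at, whose second highest ratio was in spleen (1.54), its lowest control level (6.82). Nor did it for Madd 1425735_at, whose second highest ratio was in bone marrow (1.13), its lowest control level (5.38), or for Dlg2 1421199_at, highest in brain, the third in control level. Because array medians fell in separate ranges, brain control replicate 1 was also set against duodenum and liver alone, and replicate 2 against spleen and bone marrow. The differences were then 5.01 and 5.14 for Kcnf1 1454768_at, 5.67 and 5.88 for Grm5, 3.73 and 3.98 for Ankrd29 1436294_at, and 0.76 and 2.01 for Ppp1r1b.

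**Figure D3:**
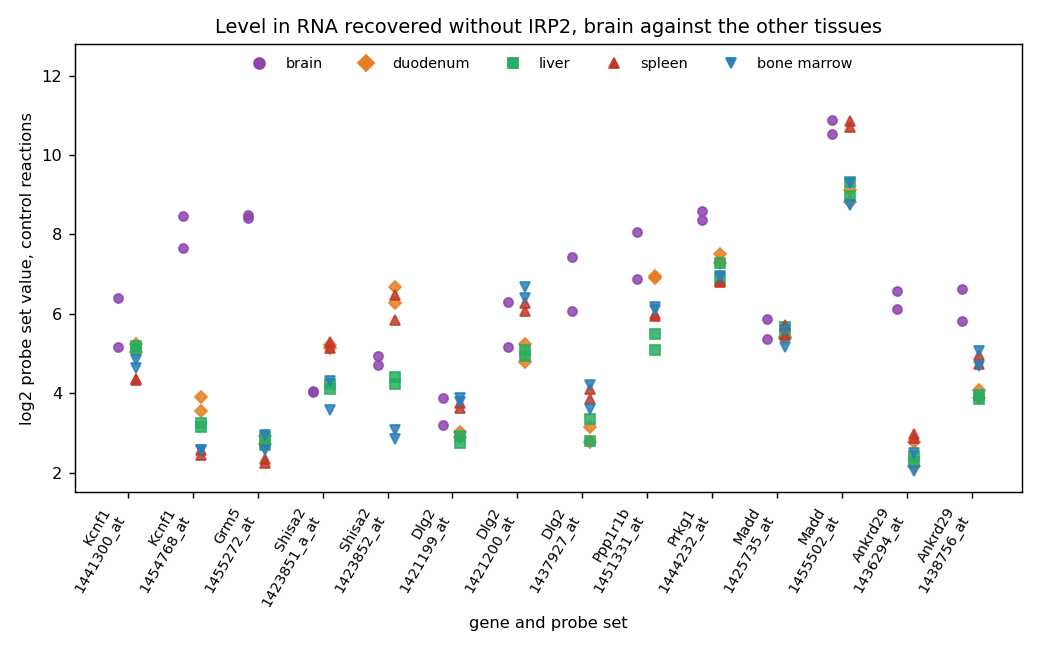
Log2 probe set value in the 10 control reactions (vertical axis) for the 14 tested probe sets (horizontal axis), with brain as circles on the left of each column and the other 4 tissues on the right. The brain controls lie above all others for Kcnf1 1454768_at, Grm5, Dlg2 1437927_at, Prkg1 and both probe sets of Ankrd29, and below the duodenum and spleen controls for Shisa2.

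Cell type markers moved with these control levels. All 6 neuron markers tested, all 4 astrocyte, all 3 oligodendrocyte and all 3 striatal markers were higher in the brain controls on at least 1 probe set, as were 28.9% of all 14872 genes. The 6 neuron markers summed to between 15796 and 22305 linear units with IRP2 and between 16148 and 20055 in control in brain, while no array of another tissue exceeded 828. Within brain the reactions thus overlapped, and the median neuron marker ratio was 0.01, near the brain median of -0.02 over all tested probe sets. In duodenum the 4 enteric neuron and glia markers summed to 192 and 197 with IRP2 and to 163 and 197 in control, with a median ratio of -0.02. The neuron and astrocyte sums overlapped there too. The striatal sums lay higher with IRP2 (1559 and 1788, against 1388 and 1505), as did the oligodendrocyte sums (946 and 981, against 865 and 900). No marker of these lists was called in duodenum. Read on its probe set with the highest mean, no neuron marker was dim in brain and 1 was dim in each other tissue.

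The other genes of the same families and pathways showed no such ratios. The lists held Kv2 partner subunits, postsynaptic scaffolds, glutamate receptors with their G proteins, the dopamine and DARPP-32 pathway, nitric oxide and cGMP signalling, the Shisa family, the Rab3 cycle and further ankyrin repeat genes, 113 genes of which 89 were tested on 183 probe sets. By limma 0 of these were called in any tissue, with or without the block, and no ratio reached 1 in either direction. Higher calls made up 0.00995% to 0.073% of all tested probe sets, by tissue, and 0.139% to 0.378% with the block. A ratio of at least 1 in some tissue, in either direction, was also rare, on 274 other probe sets of the 30153 tested. A count of 0 among 183 therefore does not set these genes apart from other probe sets. The genes described here were picked by their ratios, so their contrast with these lists follows from that choice. At an unadjusted p under 0.05, 1 of the 183 was higher in duodenum (1.05% of all tested probe sets) and 1 lower in liver (0.322%). In spleen there were none, and in brain 1 was lower (0.156%). In bone marrow 2 were higher (1.73% of all) and 6 lower (4.77%). In brain the ratios ran from -0.83 for Kcnma1, a calcium-activated potassium channel, to 0.58 for Dlgap1, a partner of the PSD-95 family. In duodenum they ran from -0.51 for Ankrd33b to 0.52 for Prkar2b, a regulatory subunit of protein kinase A. The medians lay between -0.06 in liver and 0.06 in duodenum.

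Within each list the genes with the largest mean ratio over tissues stayed between -0.31 and 0.43. Prkg2, the sister kinase of Prkg1, stood at 0.14 ± 0.11 and Pde2a, which degrades cGMP, at -0.17 ± 0.21. Among receptor partners Gnaq, the G protein that mGluR5 acts through, stood at 0.43 ± 0.13 on its highest of 7 probe sets and Grm3 at 0.22 ± 0.24. Homer1, which links mGluR5 to the postsynaptic density, stood at -0.24 ± 0.28 and Dlgap1 at 0.15 ± 0.18. The protein kinase A subunit Prkar1a stood at -0.20 ± 0.13 and the calcineurin subunit Ppp3cb, part of the phosphatase that acts on DARPP-32, at -0.19 ± 0.11. Kcng2 (0.07) and Kcns2 (-0.08), silent subunits like Kcnf1, Shisa5 (-0.16) and Shisa6 (0.13), Rab27b (-0.29) and Rims2 (-0.18), and Ankrd10 (-0.31) and Ankrd17 (-0.29) completed the lists. In the control reactions 65 of the 89 genes were higher in brain on at least 1 probe set and 10 lower, where 28.9% and 31% of all genes were. By list, those higher were 3 of 4 Kv2 partner subunits, 8 of 10 scaffolds, 8 of 9 receptor and G protein genes and 15 of 20 of the DARPP-32 pathway, of which 1 was lower. They were 9 of 13 in nitric oxide and cGMP signalling (2 lower), 3 of 5 of the Shisa family (1 lower), 13 of 19 of the Rab3 cycle (3 lower) and 6 of 9 ankyrin repeat genes (3 lower).

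**Figure D4:**
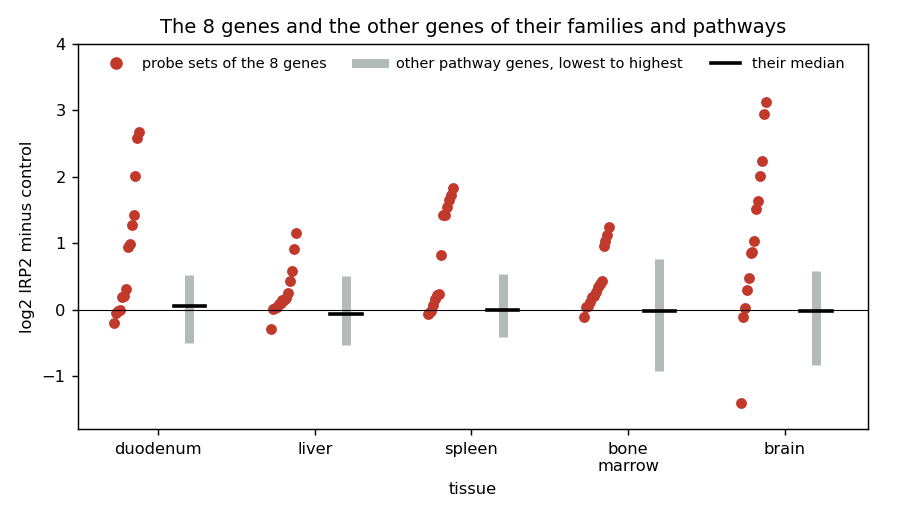
Log2 IRP2 minus control (vertical axis) in 5 tissues for the 14 tested probe sets of the 8 genes (points, sorted within a tissue) and for the 183 probe sets of 89 other genes of their families and pathways (grey bar from lowest to highest, black line for the median). The grey bars stay within -0.92 and 0.77, while the highest points reach 2.67 in duodenum and 3.13 in brain. The 8 genes were picked by these ratios.

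The genes most like each member were found by the correlation of the 10 pair ratios (5 tissues, 2 numbers) among 274 other probe sets with a ratio of at least 1 in some tissue, in either direction. These are descriptions, since the pairs of a tissue share their RNA and the closest of many were taken. Ankrd29 was most like Nr4a3, an orphan nuclear receptor (r = 0.90), and Rprml (0.86). Shisa2 was most like the transcription factor Egr2 and Hmces (0.87 each), and Grm5 like Parp14 (0.87) and Cald1 (0.65). Prkg1 was most like the ferritin heavy chain Fth1 (0.78) and Nr4a3 (0.69). Ppp1r1b was most like Arfip2 (0.68) and Trp53inp2 (0.66), and Kcnf1 like Jakmip3 (0.70) and Rprml (0.68). Madd was most like Zfp946 (0.70) and Ttc7 (0.69), and Dlg2, on 1437927_at, like Nudt21 and Marveld1 (0.60 each). A high correlation does not mean ratios of like size or sign. Marveld1 was lower with IRP2 in all 5 tissues (-1.21 to -0.43), while the reactions of Dlg2 1437927_at overlapped in each. Parp14 stood at -0.08 in brain and at 1.14 to 1.79 elsewhere. Among the 8 genes themselves the correlations ran from -0.74 for Grm5 and Ankrd29 to 0.83 for Kcnf1 and Ppp1r1b.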

How the data were processed

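The authors deposited log2 summaries of probe sets, 1 column for each of 20 arrays. The series' design text names RMA, or MAS5 in GCOS with quantile normalization, as the authors' methods; which was used, and versions, are not given in the sources used here. Array medians fell in 2 ranges, 5.65 to 5.71 (duodenum, liver, brain replicate 1) and 5.39 to 5.55 (the other arrays), so ratios were taken within tissues. Probe sets took symbols from the platform annotation. The arrays hold 45101 probe sets, 64 of them Affymetrix controls that were not used. Tests covered 30153, which had reached their own array's median on at least 2 of 20 arrays. A mean per group was fitted over all 20 arrays with limma 3.58.1 in R 4.3.3 (10 residual degrees of freedom, prior 5.34), with Benjamini-Hochberg adjustment over the tested probe sets of each contrast. The arrays give no read depth, and 2 arrays per group limit the precision.

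Same-numbered IRP2 and control arrays deviated together from their group means (correlations 0.923 in brain, 0.676 in duodenum, 0.565 in liver, 0.385 in spleen and 0.251 in bone marrow), so the numbers were treated as pairs, a pairing taken from the values, and a fit blocked on each tissue and number together, with 5 residual degrees of freedom, was an alternative. The others were array centring, joint quantile normalization, 2 other filters, fits on fewer arrays, leaving out each array, and brain against tissues of like median, which was chosen after seeing the data. The members and lists were chosen with earlier results of these data known. All probe sets of the 8 genes are described; of each pathway list, called genes and the 2 with the largest absolute mean ratio are named. Of the IRE list only Tfrc is given with its value. The fits were tested on simulated data.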

Additional observations from a re-analysis of the deposited data

Results flagged for a closer look

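For 6 probe sets both pair ratios lay above 0 in 1 tissue and below 0 in another. These differences between tissues were not tested, because the genes were chosen by such ratios. The widest was that of Ppp1r1b, at 2.58 in duodenum and -0.05 in spleen, a log2 difference of 2.63. Grm5 1455272_at stood at 0.11 in bone marrow, where it was dim, and at -1.40 in brain, a difference of 1.52. The other differences were narrower. They were 0.59 for Grm5 1456119_at between bone marrow and duodenum, and 0.51 for Dlg2 1421200_at between bone marrow and brain. Kcnf1 1441300_at differed by 0.45 between spleen and liver, and Madd 1455502_at by 0.41 between brain and bone marrow. Without bone marrow control replicate 1 the marrow ratio of Madd 1455502_at was 0.16, against -0.11 with it. That of Grm5 1455272_at was -0.08, against 0.11, so both changed sign. Dlg2 1421200_at kept its sign there, at 0.54.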

How the results depend on the processing

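The fit on all 20 arrays without a block was compared with its alternatives. With the replicate block the called members numbered 7 in duodenum, 6 in spleen and 2 in bone marrow, and the called probe sets over all genes 42 higher in brain, 114 in bone marrow, 88 in spleen, 62 in liver and 85 in duodenum, while the count of ratios that differ between tissues came to 12. The block changed no other call counted here by more than 1.5 times; lower calls over all genes came to 4 each in duodenum, liver and spleen and 105 in bone marrow. The control contrast, with replicate number alone as the block, kept its counts of 9 higher and 1 lower. On the 4 arrays of a tissue alone, 0 members were called in duodenum and brain, lower ones in brain included, and 7 in spleen; over all genes there were 0 in duodenum, bone marrow and brain, and 193 in spleen. Centring each array gave 2 called members in spleen and 0 ratios that differ between tissues. Joint quantile normalization gave 14 bone marrow calls and 0 ratios that differ between tissues, and no filter gave 0 bone marrow calls.

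Leaving out 1 array of the tissue, called members ranged from 0 to 1 in duodenum, 0 to 0 in spleen, 2 to 5 in brain for higher and 0 to 1 for lower, and the count lower in brain controls from 0 to 1. Calls over all genes ranged from 6 to 15 in brain, 0 to 89 in bone marrow, 5 to 9 in spleen, 2 to 4 in liver and 1 to 11 in duodenum, and ratios that differ between tissues from 0 to 2. Without bone marrow control replicate 2, 89 were higher and 1679 lower. The uncalled control contrast of Dlg2 1421200_at turned to -0.0071 with centring, and ranged from -0.53 to 0.60 as arrays were left out, with -0.02 without duodenum control replicate 2. That of Dlg2 1421199_at ranged from -0.13 to 0.55 and that of Madd 1425735_at from -0.13 to 0.38. Member ratios moved by at most 0.33 under joint quantile normalization and 0.03 under centring. Causes were not tested. Dim signals limit the ratios: Kcnf1, Grm5, Dlg2 and Ankrd29 were dim outside brain on their leading probe sets, Shisa2 1423852_at in brain, liver and bone marrow, and Dlg2 1421199_at in all 5 tissues, so ratios there are uncertain in size.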
